A study of Mus musculus with 6 samples.

Results

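The enzymes that break down amino acids and move 1-carbon units were examined in livers of male C57BL/6 mice made to express Sonic Hedgehog (SHH), the secreted ligand of the Hedgehog pathway. The members were a list of 43 genes, and each was read from the Affymetrix probe set that names that gene alone and has the highest mean over the 6 arrays. This gave 42 measured members of 22180 genes in all; the probe set that names Gstz1 also names another gene, so Gstz1 is not analysed here. The members were sorted into 8 classes by the amino acid or reaction they serve.

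The SHH group held 3 livers, from mice 26, 28 and 31, and the control group held 3 livers expressing green fluorescent protein (GFP), from mice 6, 13 and 21. The design text names hydrodynamic transfection, in which DNA injected rapidly in a large volume is taken up by hepatocytes, and asks about fibrosis and the expression of genes tied to it. Both groups thus expressed an introduced gene. The labels give neither the age of the mice nor the time after injection, the promoter of the introduced genes or the share of hepatocytes that took them up. All values are log2 signals of whole liver, where fewer cells of a type and less RNA per cell cannot be told apart.

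Amino acid breakdown is a main task of the hepatocyte. Carbon skeletons go to glucose, ketone bodies or the citric acid cycle, and nitrogen is collected by aminotransferases and passed to the urea cycle. In 1-carbon metabolism, serine, glycine and the methyl groups of choline load folate with single carbons, and the methionine cycle turns methyl groups into S-adenosylmethionine, the methyl donor of the cell.

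Array medians lay between 4.32 and 4.40 on the log2 scale in SHH livers and between 4.36 and 4.39 in GFP livers, and lower quartiles between 3.13 and 3.22. Shh itself had signals of 4.57, 4.28 and 4.63 in SHH livers 26, 28 and 31, against 3.86, 3.43 and 3.67 in GFP livers 6, 13 and 21, so the groups did not overlap, although the difference of 0.84 did not pass over all genes (limma, adjusted p = 0.356). These Shh signals were dim, near the array medians in SHH livers and below them in GFP livers. Defining hepatocyte genes were at the top of the scale in every liver, with Alb, which encodes albumin, at 13.66 to 13.72 in SHH livers and 13.67 to 13.71 in GFP livers. SHH 26 stood apart from the other SHH livers in acute phase genes, the plasma proteins that the liver makes in inflammation. Averaged over 17 such genes, the log2 signal of SHH 26 was 9.84 and that of SHH 28 and 31 was 11.89 and 11.32, against 9.24 to 9.48 in GFP livers. Counts are therefore also given without SHH 26. Where 3 values are listed for a group below, they are those of mice 26, 28 and 31 for SHH and of mice 6, 13 and 21 for GFP.

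Most of the enzymes were slightly lower in SHH livers, and no single one passed the test. Of 42 measured members, 31 had a lower mean in SHH livers (73.8%), against 56.2% of all genes tested, and 11 had a higher mean. The median difference over the members was -0.17 on the log2 scale, against -0.03 over all genes. Limma called 0 members lower and 0 higher after Benjamini-Hochberg adjustment over all 22180 genes, where 0% of genes were called in either direction. At an unadjusted p under 0.05, 2 members were lower (4.76%) and 0 higher, against 4.01% and 3.33% of all genes, so the share of members at that level lay near the background. That share changed with the livers used. Without SHH 26, 6 members (14.3%) had an unadjusted p under 0.05 in either direction, against 8.09% of all genes. The count was 4 (9.52%) without SHH 31 or GFP 21, against 7.04% and 7.08% of all genes, and 1 (2.38%) without SHH 28, GFP 6 or GFP 13, against 6.59%, 6.19% and 5.58%. With SHH 26 left out, limma called 16 genes lower (0.0721%) and 30 higher (0.135%), and 0 of them were members; 32 of 42 members then had a lower mean (76.2%, against 54.4% of all genes), with a median difference of -0.18.

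The differences were small. They ran from -0.52 for Shmt1 to 0.23 for Cbs, and 39 of 42 lay within 0.3 of 0. The 95% intervals of the fit, set per gene, reached no further than -0.81 on the lower side (a 1.76-fold lower signal, for Shmt1) and 0.57 on the upper side (1.48-fold higher, for Cbs), so a change of 2-fold lay outside the interval of every measured member. The median SD within a group was 0.12 in SHH livers and 0.10 in GFP livers. Array signals tend to understate true changes, and this holds most for dim probe sets.

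**Figure D1:**
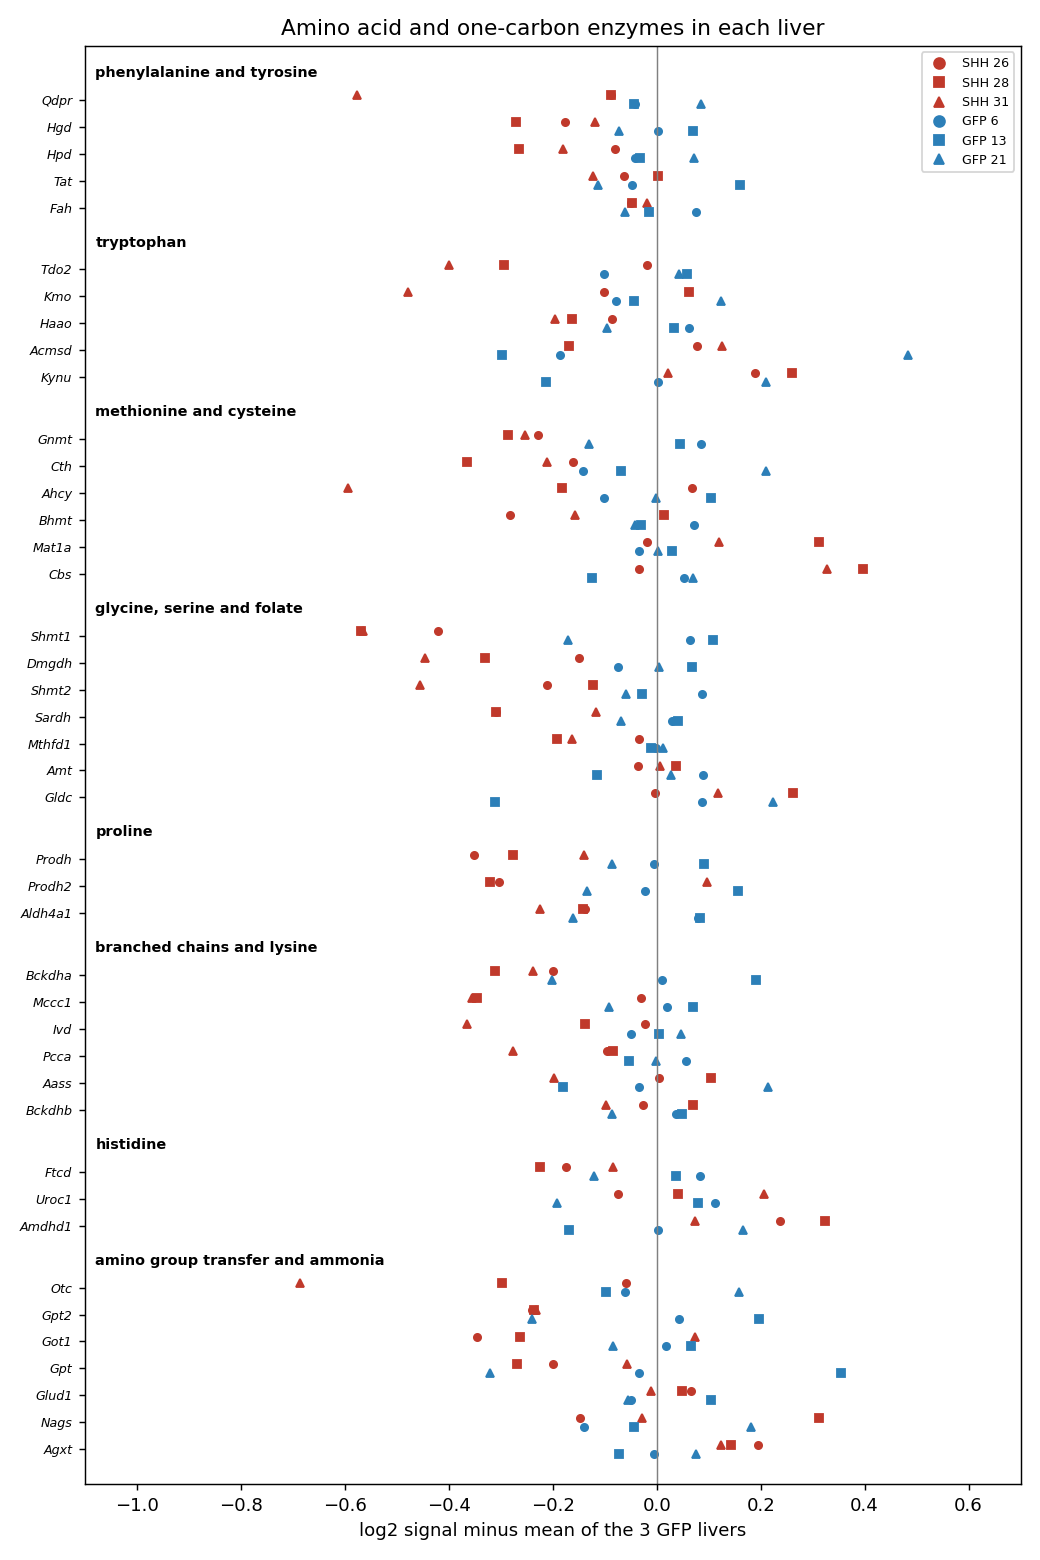
Log2 signal of each measured member in each liver, minus the mean of the 3 GFP livers for that gene, with SHH livers in red and above GFP livers in blue. The 42 members are grouped by class and sorted by the difference. The points furthest to the left are those of SHH 31 for Otc (-0.69) and Ahcy (-0.59), and most red points lie within 0.4 of the line at 0.

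The counts of livers on each side differed more from the background than the single tests did. All 3 SHH livers lay below all 3 GFP livers for 12 of 42 members (28.6%), against 7.25% of all genes. All 3 lay above for 1 member, Agxt (2.38%), against 5.26% of all genes. Bright probe sets as a whole lean the same way: of 2134 genes with a mean log2 signal above 8, 63.6% had a lower mean in SHH livers, 12.1% had all SHH livers below all GFP livers and 6.56% above them, 5.95% were lower at an unadjusted p under 0.05, and the median difference was -0.05. Of the 38 members above that level, 29 had a lower mean (76.3%) and 11 were fully below (28.9%). When arrays were set to equal medians, 8 members lay fully below (19.0%), against 5.58% of all genes, and 2 fully above, Agxt and Mat1a (4.76%, against 6.54%). Under that scaling Cth, Hpd, Mthfd1, Pcca, and Qdpr were no longer separated, and Ftcd became so. With a second quantile normalization 12 members lay fully below (28.6%, against 6.5% of all genes), with Haao in place of Prodh. Agxt alone lay fully above (2.38%, against 6.52%).

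The median over members of the deviation from the GFP mean came to -0.08, -0.15 and -0.15 in SHH livers 26, 28 and 31, against 0.00, 0.03 and -0.02 in GFP 6, 13 and 21. Each SHH liver was thus below each GFP liver on this measure, SHH 26 least so. Of the 42 members, 35 lay below the GFP mean in SHH 26, 27 in SHH 28 and 31 in SHH 31, against 19 to 23 in GFP livers. The GFP deviations are taken from their own mean, so they centre on 0 by construction. The same counts per liver were not made over all genes, of which 56.2% had a lower mean in SHH livers. The array medians of SHH 26 and 28 (4.33 and 4.32) also lay below those of all GFP arrays (4.36 to 4.39). That of SHH 31 (4.40) did not. SHH 31 had the lowest value of the SHH livers for 19 members, SHH 28 for 12 and SHH 26 for 11.

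**Figure D2:**
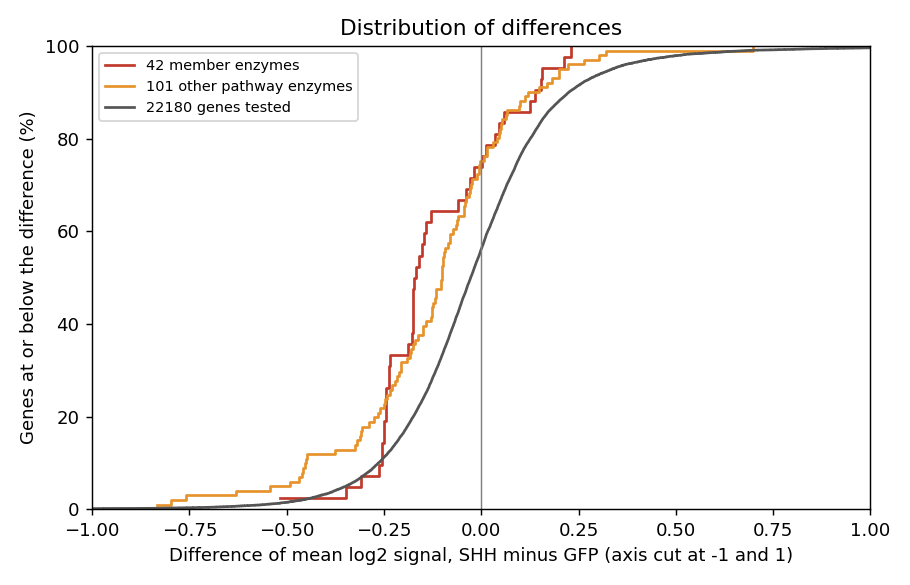
Cumulative share of genes, in percent, against the difference of mean log2 signal (SHH minus GFP), for the 42 members, the 101 other enzymes of the same pathways and all 22180 genes tested. The curves of the members and of the other pathway enzymes lie left of that of all genes, with medians of -0.17, -0.10 and -0.03, and the members hardly reach beyond -0.5.

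The promoters of the members that differed most in each direction are printed because these genes set the limits of what was seen. Shmt1, Otc and Dmgdh had the 3 lowest differences, and Cbs and Amdhd1 the 2 highest. Each line gives the 250 bases before the annotated start of the gene, 5′ to 3′ on the strand of the gene, from RefSeq on GRCm38.p6, with capitals for the letters CCAAT on either strand, a box bound by the factor NF-Y.
Shmt1, chr11:60811266-60811515, minus strand: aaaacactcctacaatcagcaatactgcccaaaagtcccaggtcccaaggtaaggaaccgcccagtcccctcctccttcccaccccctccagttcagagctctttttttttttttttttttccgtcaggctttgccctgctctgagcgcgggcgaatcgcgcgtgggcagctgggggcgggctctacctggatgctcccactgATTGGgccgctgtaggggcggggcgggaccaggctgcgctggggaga
Otc, chrX:10252055-10252304, plus strand: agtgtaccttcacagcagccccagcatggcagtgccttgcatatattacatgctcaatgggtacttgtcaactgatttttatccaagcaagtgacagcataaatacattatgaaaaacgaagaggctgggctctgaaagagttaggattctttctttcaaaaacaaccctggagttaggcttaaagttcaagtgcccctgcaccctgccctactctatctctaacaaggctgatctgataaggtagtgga
Dmgdh, chr13:93674186-93674435, plus strand: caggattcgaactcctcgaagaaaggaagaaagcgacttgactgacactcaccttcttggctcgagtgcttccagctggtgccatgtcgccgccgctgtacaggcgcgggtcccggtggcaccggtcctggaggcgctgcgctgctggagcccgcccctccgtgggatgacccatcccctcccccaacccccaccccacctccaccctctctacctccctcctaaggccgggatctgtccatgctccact
Cbs, chr17:31637206-31637455, minus strand: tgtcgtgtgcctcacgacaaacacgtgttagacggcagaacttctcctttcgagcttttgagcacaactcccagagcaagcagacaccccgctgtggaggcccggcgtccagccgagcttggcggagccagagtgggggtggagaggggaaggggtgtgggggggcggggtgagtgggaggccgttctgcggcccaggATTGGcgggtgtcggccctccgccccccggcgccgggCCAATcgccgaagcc
Amdhd1, chr10:93540034-93540283, minus strand: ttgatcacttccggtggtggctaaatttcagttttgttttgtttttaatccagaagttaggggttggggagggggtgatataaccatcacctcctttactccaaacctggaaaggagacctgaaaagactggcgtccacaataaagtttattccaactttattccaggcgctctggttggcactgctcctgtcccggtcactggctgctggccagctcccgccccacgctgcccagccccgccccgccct
The box was found once in the Shmt1 window, 47 to 43 bases before the start, and in the Cbs window 52 to 48 and 15 to 11 bases before it. Shmt1 had a lower and Cbs a higher mean, but neither passed over all genes. Whether the box goes with direction was not tested. These letters are not in the windows of Otc, Dmgdh and Amdhd1. RefSeq promoters were matched for 39 of 43 members, and 22 of the 39 windows held the box (56.4%), against 36.3% of the 17492 windows of protein-coding genes. The other motifs searched on both strands were each found in at most 3 of the 39 windows. STAT3 (TTCNNNGAA) matched in 7.69% of member windows and 6.69% of coding windows, the glucocorticoid receptor (ACANNNTGT) in 7.69% and 5.26%, the TATA box (TATAAA) in 7.69% and 12.4%, C/EBP (TTGCNNCAA) in 2.56% and 1.58%, and the HNF1 site in 2.56% and 0.0572%. The HNF1 share of the members rests on 1 window, that of Prodh2, against 10 of the 17492 coding windows. The core CREB letters (TGACGT) matched in 2.56% and 7.56%, the ATF4 and C/EBP composite (TGATGNAAN) in 2.56% and 3.24%, and the full CREB site (TGACGTCA) in 0% and 2.01%. The HNF4 core (CAAAGTCCA) and the nuclear receptor direct repeat spaced by 1 base matched in 0% of member windows, against 0.366% and 0.0457% of coding windows. The CREB core lies within the full CREB site. A match is a run of letters and not evidence of binding.

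Glycine, serine and folate enzymes included the largest difference among the members. Of 7 measured, 5 had a lower mean in SHH livers, and for all 5 the SHH livers lay fully below the GFP livers (over all genes, 56.2% had a lower mean and 7.25% lay fully below). With equal array medians Mthfd1 was no longer among them. Shmt1 is the cytosolic serine hydroxymethyltransferase, which turns serine into glycine and loads folate with a 1-carbon unit. Its log2 signal was 8.67, 8.53 and 8.53 in SHH livers, against 9.16, 9.20 and 8.92 in GFP livers. Every SHH liver was below the lowest GFP liver, and SHH 28 and SHH 31 were nearly equal. The means were 8.58 ± 0.08 in SHH livers and 9.10 ± 0.15 in GFP livers (SD, n = 3 each), a 1.43-fold lower signal in SHH livers with a 95% interval of -0.81 to -0.22 for the log2 difference of -0.52. It did not pass over all genes (limma, adjusted p = 0.446), and the difference stayed between -0.60 and -0.46 with any 1 liver left out.

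Shmt2, the mitochondrial enzyme of the same reaction, had 9.15, 9.24 and 8.90 in SHH livers, against 9.45, 9.33 and 9.30 in GFP livers. The difference was -0.26 (95% interval -0.57 to 0.04), with SHH 31 lowest. Mthfd1, the cytosolic trifunctional enzyme that interconverts folate 1-carbon forms, had 9.58, 9.43 and 9.46 in SHH livers, against 9.62, 9.61 and 9.63 in GFP livers. Its GFP livers were almost identical and SHH 26 lay just under them, and the difference was -0.13.

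Dmgdh and Sardh are the mitochondrial enzymes that strip methyl groups from dimethylglycine and from sarcosine, which come from choline and from glycine methylation. Dmgdh had 10.42, 10.24 and 10.12 in SHH livers, against 10.49, 10.64 and 10.57 in GFP livers, and Sardh had 9.84, 9.84 and 10.03 in SHH livers, against 10.17, 10.19 and 10.08 in GFP livers. For both, no SHH liver reached a GFP liver; SHH 26 was the highest SHH liver for Dmgdh and SHH 31 for Sardh. The differences were -0.31 and -0.25, with adjusted p = 0.667 and 0.724 in limma over all genes. A second, dimmer Sardh probe set (3.53 to 3.67 in SHH livers, against 3.68 to 3.84 in GFP livers) differed by -0.16.

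Gldc and Amt, both parts of the mitochondrial glycine cleavage system, did not share this direction. Gldc had 8.53, 8.80 and 8.65 in SHH livers, against 8.62, 8.23 and 8.76 in GFP livers, a difference of 0.13 in which GFP 13 was the lowest liver. Amt had a difference of 0.00 (95% interval -0.27 to 0.27), with SHH livers at 7.61 to 7.68 and GFP livers at 7.53 to 7.73. The mean deviation of the 7 enzymes from the GFP mean came to -0.17, -0.17 and -0.23 in SHH livers 26, 28 and 31, against 0.04, -0.04 and -0.00 in GFP 6, 13 and 21.

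**Figure D3:**
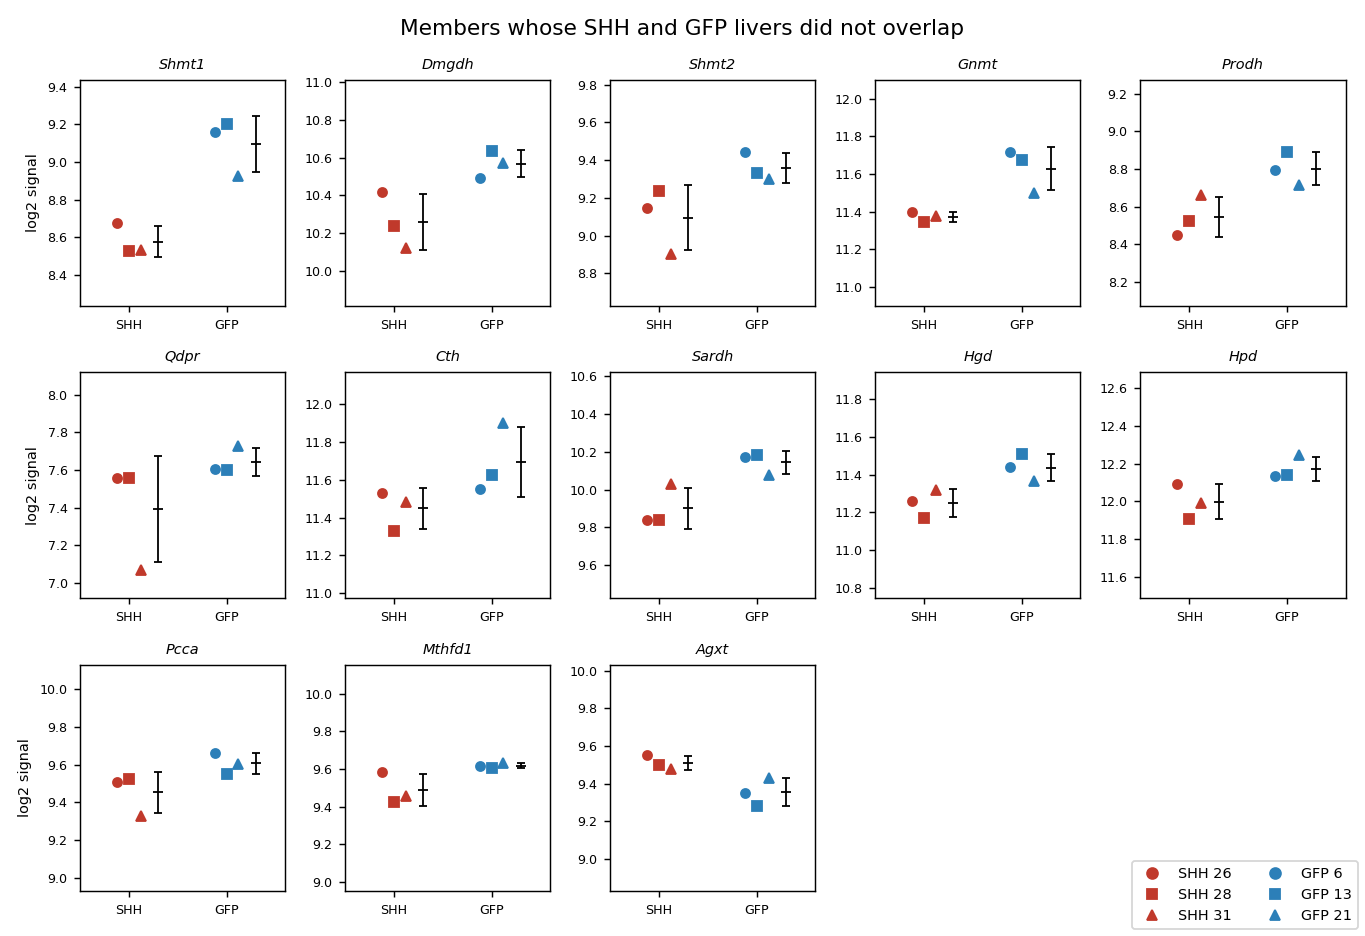
Log2 signal in each liver for the 13 members whose SHH and GFP livers did not overlap, each panel spanning 1.2 log2 units, with bars for the mean and SD of 3 livers beside the points. Shmt1 shows the widest gap, Qdpr owes its lower mean mostly to SHH 31, and Agxt is the single member with SHH livers on top.

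The methionine cycle and the path from homocysteine to cysteine had means in both directions. Of 6 enzymes, 4 had a lower and 2 a higher mean in SHH livers, where 56.2% of all genes had a lower mean. Gnmt, the glycine methyltransferase that consumes surplus S-adenosylmethionine, had 11.40, 11.34 and 11.37 in SHH livers, against 11.71, 11.67 and 11.50 in GFP livers. The SHH livers lay close together and all below the GFP livers, with a difference of -0.26 (95% interval -0.53 to 0.02). Cth, the cystathionine lyase that releases cysteine, had 11.53, 11.33 and 11.48 in SHH livers, against 11.55, 11.63 and 11.90 in GFP livers. SHH 26 lay just below the lowest GFP liver, and the difference was -0.25.

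Cbs, which joins homocysteine and serine and stands just before Cth, had the largest difference upward. Its signals were 10.04, 10.47 and 10.40 in SHH livers, against 10.12, 9.95 and 10.14 in GFP livers. SHH 28 and SHH 31 exceeded every GFP liver while SHH 26 lay among them, and the difference was 0.23 (95% interval -0.11 to 0.57; limma, adjusted p = 0.796), or 0.36 without SHH 26. Mat1a, the liver form of the enzyme that makes S-adenosylmethionine, had 12.23, 12.56 and 12.37 in SHH livers, against 12.22, 12.28 and 12.25 in GFP livers, with SHH 26 between GFP livers and a difference of 0.14. The Mat1a difference became 0.05 without SHH 28, and with equal array medians all its SHH livers lay above the GFP livers.

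Ahcy, which splits S-adenosylhomocysteine, had 10.77, 10.52 and 10.10 in SHH livers, against 10.60, 10.80 and 10.70 in GFP livers. SHH 31 alone was far below, and the difference of -0.24 became -0.06 without it. A second Ahcy probe set differed by -0.07. Bhmt, which remethylates homocysteine with betaine, had signals of 5.06 to 5.36 in SHH livers and 5.30 to 5.42 in GFP livers. These lay below the upper quartile of every array (5.90 to 5.98), which is dim for a gene known to be abundant in liver, so the probe set may not read the transcript and the difference of -0.14 says little about Bhmt.

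For phenylalanine and tyrosine, all 5 measured enzymes had a lower mean in SHH livers and 3 (Hpd, Hgd and Qdpr) did not overlap with GFP livers, where 56.2% of all genes had a lower mean and 7.25% lay fully below. With equal array medians only Hgd of these stayed separated. Hpd and Hgd catalyse successive oxidations of the tyrosine skeleton. Hpd had 12.09, 11.91 and 11.99 in SHH livers, against 12.13, 12.14 and 12.25 in GFP livers, and Hgd had 11.26, 11.17 and 11.32 in SHH livers, against 11.44, 11.51 and 11.37 in GFP livers. SHH 28 was the lowest liver for both, and the differences were -0.18 and -0.19. Qdpr, which regenerates the tetrahydrobiopterin cofactor of phenylalanine hydroxylation, had 7.56, 7.56 and 7.07 in SHH livers, against 7.60, 7.60 and 7.73 in GFP livers. SHH 26 and SHH 28 lay just below the nearest GFP liver, SHH 31 far below it, and the difference of -0.25 became -0.09 without SHH 31.

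The first and last enzymes of tyrosine breakdown hardly differed. Tat, the tyrosine aminotransferase known for its induction by glucocorticoids and glucagon, had 12.66, 12.72 and 12.60 in SHH livers, against 12.67, 12.88 and 12.61 in GFP livers. Its difference was -0.06 (95% interval -0.35 to 0.23). Fah, the final hydrolase of the path, had a difference of -0.04 (95% interval -0.30 to 0.22), with 10.42 to 10.45 in SHH livers and 10.41 to 10.55 in GFP livers. For both genes the groups overlapped.

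Tryptophan breakdown through kynurenine had 3 of 5 members with a lower mean and none without overlap. Over all genes, 56.2% had a lower mean, 7.25% lay fully below and 5.26% fully above. Haao became separated with a second quantile normalization. Tdo2, the dioxygenase that opens the indole ring, had 12.31, 12.04 and 11.93 in SHH livers, against 12.23, 12.39 and 12.37 in GFP livers. SHH 26 lay within the GFP range and the other SHH livers below it, and the difference was -0.24, or -0.35 without SHH 26. Kmo, the kynurenine hydroxylase, and Haao, which opens the 3-hydroxyanthranilate ring, differed by -0.17 and -0.15. The Kmo difference rested on SHH 31 (10.62, against 11.02 to 11.22 in GFP livers) and became -0.02 without it.

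Kynu, the kynureninase, had the third highest difference of all members. It had 9.85, 9.92 and 9.68 in SHH livers, against 9.66, 9.44 and 9.87 in GFP livers, so the groups overlapped, and the difference was 0.16 (95% interval -0.18 to 0.49), or 0.05 without GFP 13 and 0.26 without GFP 21. Acmsd, which diverts the path away from NAD synthesis, differed by 0.01, with GFP 21 highest of the 6 livers at 7.92.

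Some other genes of tryptophan breakdown, which are no members, showed larger differences. The list of 114 further enzymes of these pathways, chosen as the members were with results known, had 101 measured. Limma called 0 of them over all genes. At an unadjusted p under 0.05, 12 were lower (11.9%) and 1 higher (0.99%), against 4.01% and 3.33% of all genes. Aadat, a kynurenine and 2-aminoadipate aminotransferase, had 10.21, 9.73 and 9.15 in SHH livers, against 10.27, 10.57 and 10.76 in GFP livers. Kyat3, another kynurenine aminotransferase, had 9.75, 9.37 and 9.29 in SHH livers, against 10.32, 10.57 and 9.79 in GFP livers. Afmid, which frees kynurenine from formylkynurenine, had 9.01, 8.44 and 8.64 in SHH livers, against 9.34, 9.53 and 9.11 in GFP livers. For each of these 3 genes every SHH liver lay below every GFP liver. The other 5 tryptophan genes of the list overlapped: Ddc differed by -0.46, Ido2 by -0.14, Qprt by -0.03, Ido1 by -0.01 and Kyat1 by 0.15.

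The differences were -0.83 for Aadat (1.78-fold lower), -0.76 for Kyat3 (1.69-fold lower) and -0.63 for Afmid (1.55-fold lower), with adjusted p = 0.534, 0.512 and 0.521 in limma over all genes. Csad, which makes hypotaurine from a cysteine product, had 7.63, 6.82 and 6.70 in SHH livers, against 8.03, 7.90 and 7.62 in GFP livers, where SHH 26 just reached the lowest GFP liver, and a difference of -0.80 (1.74-fold lower). Suox, the sulfite oxidase at the end of cysteine breakdown, had the smallest unadjusted p of the 101, with 8.60, 8.71 and 8.48 in SHH livers, against 8.99, 9.14 and 9.13 in GFP livers. Its difference was -0.49 (limma, adjusted p = 0.446), and the groups did not overlap. Upward, Hdc, the histidine decarboxylase, differed by 0.70, Ggh, a folate hydrolase, by 0.26, the dipeptidase gene Cndp2 by 0.22 and the proline synthesis gene Aldh18a1 by 0.20, all with overlapping groups. The Hdc signals (3.44 to 5.03) lay below the upper quartile of every array, and those of Aldh18a1 (3.81 to 4.22) below the median of every array.

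Over the whole further list, 76 of 101 genes had a lower mean in SHH livers (75.2%), and 21 had SHH livers fully below GFP livers (20.8%, against 7.25% of all genes). That count became 13 (12.9%) when arrays were set to equal medians, against 5.58% of all genes. The median difference was -0.10.

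Branched-chain and lysine enzymes had lower means in 6 of 6 among the members and 22 of 24 in the further list, against 56.2% of all genes and 63.6% of those with a signal above 8, and none was called. Pcca, a subunit of propionyl-CoA carboxylase, had 9.51, 9.52 and 9.33 in SHH livers, against 9.66, 9.55 and 9.60 in GFP livers. It was the single member of this class with no overlap, which was lost with equal array medians, and the difference was -0.15. Bckdha, the E1 alpha subunit of the branched-chain ketoacid dehydrogenase, had 8.56, 8.44 and 8.52 in SHH livers, against 8.77, 8.95 and 8.55 in GFP livers, where SHH 26 lay just above GFP 21. The partner subunit Bckdhb differed by only -0.02, against -0.25 for Bckdha.

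Mccc1 and Ivd serve leucine. Mccc1, a carboxylase subunit, had 8.18, 7.86 and 7.85 in SHH livers, against 8.23, 8.28 and 8.12 in GFP livers, and Ivd, the isovaleryl-CoA dehydrogenase, had 8.83, 8.71 and 8.49 in SHH livers, against 8.80, 8.85 and 8.90 in GFP livers. In both, SHH 26 lay within the GFP range, and the differences were -0.24 and -0.18. Aass, the first enzyme of lysine breakdown, differed by -0.03 with overlapping groups. SHH 31 was the lowest SHH liver for 5 of the 6 members, and the class mean deviated by -0.06 in SHH 26, -0.12 in SHH 28 and -0.25 in SHH 31, against -0.02 to 0.01 in GFP livers.

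In proline breakdown all 3 members had a lower mean, against 56.2% of all genes. Prodh, the mitochondrial proline dehydrogenase, had 8.45, 8.52 and 8.66 in SHH livers, against 8.80, 8.89 and 8.72 in GFP livers, with no overlap and a difference of -0.26. With a second quantile normalization its groups overlapped. Prodh2, which oxidises hydroxyproline, had 8.37, 8.35 and 8.77 in SHH livers, against 8.65, 8.83 and 8.54 in GFP livers. Here SHH 31 lay within the GFP range, and the difference of -0.18 became -0.31 without that liver. Aldh4a1, which serves both paths, differed by -0.17, with SHH livers at 8.73 to 8.81 and GFP livers at 8.79 to 9.03.

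Histidine breakdown had 2 of 3 members with a higher mean and none without overlap. Of all genes, 56.2% had a lower mean, 7.25% lay fully below and 5.26% fully above. Amdhd1, the imidazolonepropionase, had 9.90, 9.99 and 9.74 in SHH livers, against 9.67, 9.50 and 9.83 in GFP livers. SHH 26 and SHH 28 exceeded every GFP liver, SHH 31 did not, and the difference was 0.21 (95% interval -0.10 to 0.52). Uroc1, the urocanase before it, differed by 0.06, and this crossed 0 with 1 liver left out (-0.04 to 0.12). Ftcd, which passes the last carbon of histidine to folate, differed by -0.16 and was separated only with equal array medians. Hal, the first enzyme of the path and part of the further list, had 10.73, 10.74 and 10.75 in SHH livers, against 10.63, 10.36 and 10.68 in GFP livers, with all SHH livers above all GFP livers.

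**Figure D4:**
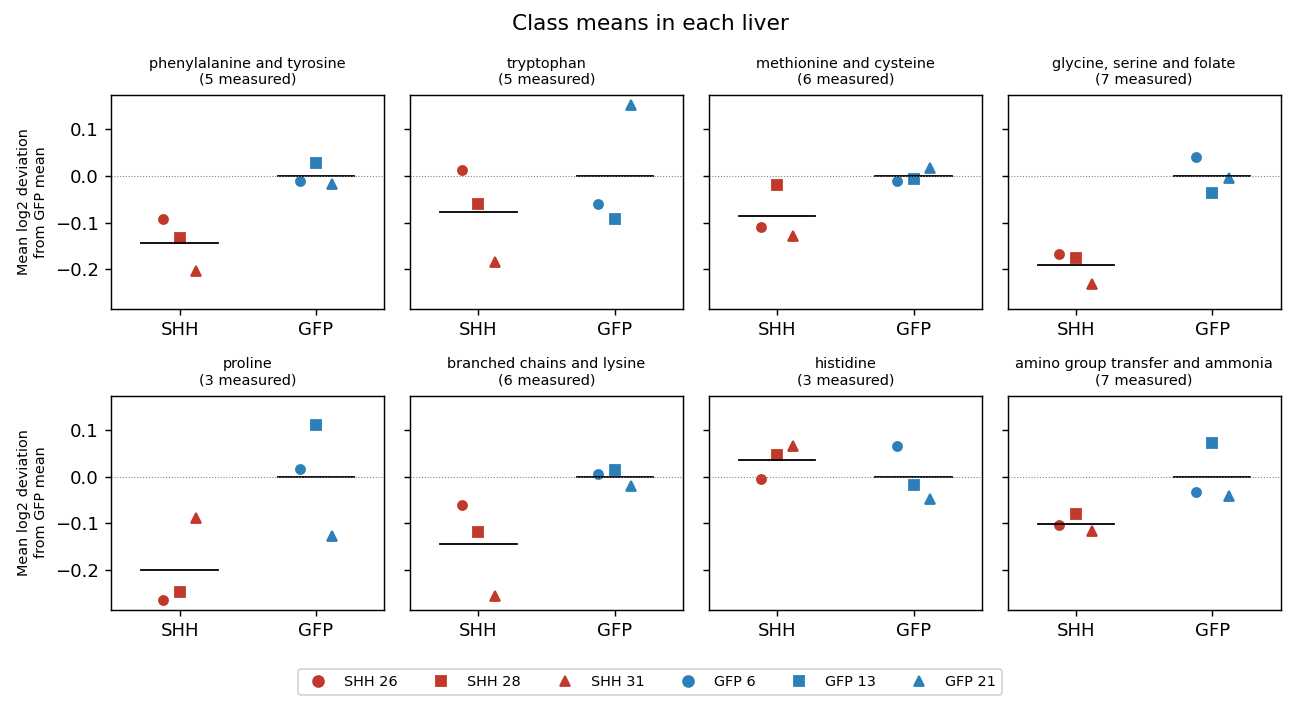
Mean over the measured members of each class of the log2 deviation from the GFP mean, 1 point per liver, with a line at the mean of 3 livers. SHH livers lie fully below GFP livers in 5 classes (phenylalanine and tyrosine; methionine and cysteine; glycine, serine and folate; branched chains and lysine; amino group transfer and ammonia) and overlap with them in tryptophan, proline and histidine. The gap is narrowest in methionine and cysteine, with -0.02 in SHH 28 and -0.01 in GFP 6.

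Aminotransferases and ammonia enzymes were mixed. Agxt, the alanine-glyoxylate aminotransferase that detoxifies glyoxylate, had 9.55, 9.50 and 9.48 in SHH livers, against 9.35, 9.28 and 9.43 in GFP livers. It was the single member with every SHH liver above every GFP liver, by a difference of 0.15 (95% interval -0.11 to 0.42). The aminotransferase genes Got1, Gpt and Gpt2 differed by -0.18, -0.18 and -0.24. Gpt2, the mitochondrial alanine aminotransferase, was nearly identical in the SHH livers (9.72 in each), all of them within the GFP range of 9.72 to 10.16. The Gpt difference of -0.18 became 0.00 without GFP 13, whose signal of 9.42 was the highest.

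Otc, the urea cycle enzyme that makes citrulline, had the second lowest difference of the members. Its signals were 11.49, 11.25 and 10.87 in SHH livers, against 11.49, 11.45 and 11.71 in GFP livers. SHH 31 was far below, SHH 28 below the GFP livers and SHH 26 within their range. The means were 11.20 ± 0.32 in SHH livers and 11.55 ± 0.14 in GFP livers (SD, n = 3 each), and the difference of -0.35 (95% interval -0.74 to 0.05; limma, adjusted p = 0.725) became -0.18 without SHH 31 and -0.49 without SHH 26. Nags, which makes the activator of the first urea cycle enzyme, and Glud1, glutamate dehydrogenase, differed by 0.05 and 0.03. The urea cycle genes Cps1, Ass1 and Arg1 of the further list differed by -0.00, -0.01 and 0.05, and Asl by -0.21. The Ass1 probe set was dim, with signals of 5.66 to 6.39 around the upper quartile of the arrays (5.90 to 5.98). Its 95% interval of -0.56 to 0.53 was wide, so its value says little about Ass1.

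Markers of other cells also differed in mean between the groups. Of 10 macrophage genes 10 had a higher mean in SHH livers, of 10 neutrophil genes 10, of 10 T and natural killer cell genes 9, of 6 B and plasma cell genes 6, and of 11 stellate cell and fibroblast genes 10. Over all 22180 genes, 9723 had a higher mean and 12457 (56.2%) a lower one. The mean log2 signal of the macrophage list was 7.10 to 8.05 in SHH livers and 6.40 to 7.28 in GFP livers, with SHH 31 highest. That of the neutrophil list was 3.72 to 4.78 in SHH livers and 3.38 to 3.65 in GFP livers. All 7 endothelial genes and 3 of 5 bile duct genes had a lower mean, and 16 of 17 acute phase genes a higher one. The hepatocyte list was not lower: 7 of 8 genes had a higher mean in SHH livers, with list means of 12.49 to 12.57 in SHH livers and 12.40 to 12.47 in GFP livers. That list holds Fgb, which is also an acute phase gene and had its largest difference (0.31). All 9 pericentral hepatocyte genes, of which Glul and Oat are also in the further list, had a lower mean. For 2 of the 9, SHH livers lay fully below GFP livers, against 7.25% of all genes and 12.1% of those with a mean signal above 8. The list means were 8.838 to 8.946 in SHH livers and 8.995 to 9.121 in GFP livers. These ranges did not overlap, but SHH 31 (8.946) and GFP 13 (8.995) lay close together. None of the marker genes was called in limma over all genes, and their part in the lower means of the enzymes was not tested.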

How the data were processed

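Total RNA of 6 livers (3 SHH, 3 GFP) was hybridised to 1 Affymetrix array each. The deposited values are log2 signals made by the authors with RMA, per the submitters' processing notes; its version and probe set level were not stated there. RMA makes array distributions alike, so a shift of the whole liver transcriptome would be hidden. Of 41345 probe sets, 23521 named 1 gene, 1814 named several and 16010 were unnamed here, by the platform annotation, and 22180 genes were tested. Symbols were checked against RefSeq (GRCm38.p6) through gene identifiers, which changed 0. The brightest probe set per gene was used.

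The groups were tested with limma 3.58.1 (R 4.3.3; lmFit, eBayes, two-sided, no covariate), with Benjamini-Hochberg adjustment at 0.05 over all genes. An exact permutation test of 3 against 3 livers cannot go below p = 0.1 and was not used. Intervals are 95%. The fit was tested on simulated data whose added differences were larger than any seen among the members. That test therefore does not cover differences of the size reported here. The labels give separate mouse numbers, and the number of arrays limits the precision.

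Members, lists, motifs and the naming rule (all members, with every liver's value for the separated and most different ones; of the further list the 4 smallest p per direction) were chosen with earlier results of these data known. Genes of the further list beyond those 4, such as Aadat, Hal and the urea cycle genes, were named after their values were seen. Alternatives were other probe set choices, level filters, scalings, variance priors, array weights and each mouse left out. The background of genes above a mean signal of 8 and the counts of separated genes under other scalings were added after seeing the data.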

Additional observations from a re-analysis of the deposited data

How the results depend on the processing

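The count of 0 members called in either direction held under every alternative run, as did the 0 of the further pathway list, and the smallest adjusted p of any member was 0.332 (Shmt1, limma, only genes above the median level). The 2 members at an unadjusted p under 0.05 (4.76%) became 5 (11.9%) with a mean-variance trend in limma, 4 (9.52%) with array weights, and 1 (2.38%) with equal array medians. All of these members were lower in SHH livers. Of all 22180 genes, 889 (4.01%) were lower at that level in the main fit. The all-gene count became 901 with the trend, 966 with array weights and 677 with equal array medians. Over all genes the counts with 1 mouse left out ran from 0 to 30 higher and from 0 to 16 lower, and without SHH 26 they were 30 and 16. Members with a lower mean numbered 30 to 33 over all alternatives that tested the 42 members. Their median difference ran from -0.178 to -0.118 with 1 mouse left out, the weakest being without SHH 31, and was -0.148 with equal array medians. In the further list 67 to 78 genes had a lower mean with 1 mouse left out. Limited to genes with a mean signal above 8, the count was 39 of 46, a smaller list by construction. With equal array medians its genes fully below GFP livers were 13 in place of 21 and those fully above 2 in place of 1, and with a second quantile normalization those above were also 2. Among the members, those fully above became 2 with equal array medians. The direction held under every alternative for 33 of 42 members. With 1 mouse left out the differences crossed 0 for Tat (-0.117 to 0.0198), Acmsd (-0.137 to 0.253), Gldc (-0.0307 to 0.238), Amt (-0.0546 to 0.0470), Bckdhb (-0.0615 to 0.0217), Aass (-0.119 to 0.0781), Uroc1 (-0.0381 to 0.124), Gpt (-0.336 to 0.00217) and Nags (-0.0877 to 0.143). Amt (-0.0190) and Aass (0.00035) also crossed 0 with array weights, and Bckdhb with equal array medians (0.00465) and a second quantile normalization (0.00714). The cause of these crossings was not tested. No paired analysis was possible because the groups share no mouse numbers. Dim probe sets such as those of Bhmt and Hdc limit what could be seen.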
